A study of Mus musculus with 24 samples.

Results

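The 27 genes described here code for the parts of inhibitory synapses that use GABA or glycine as transmitter. They were taken by name from a list and matched to Ensembl gene entries, and all 27 of the 27 names had an entry in every file. Entries with 10 or more counts in 3 or more of the 24 libraries were kept, which left all 27 of these genes and 17915 of the 37621 gene entries of the series. The list holds 10 subunits of the GABA-A receptor, 2 of the GABA-B receptor, 4 of the glycine receptor, 3 genes of GABA synthesis and vesicle loading, 4 of transmitter uptake and breakdown, 2 of the postsynaptic scaffold and 2 chloride transporters. Other subunits and transporters of these families were not analysed here, so every share below is a share of the listed genes.

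The libraries were made from ribosomal-RNA-depleted total RNA of dissected cerebellum, cortex, hippocampus and olfactory bulb. Each region had 3 libraries from mice labelled Cdr1as knockout (KO) and 3 from wild type (WT), all of the strain C57BL/6. Cdr1as is a circular RNA made in neurons, known for its many sites for the microRNA miR-7 and for a site of miR-671. The sources used here do not give age, sex, how the locus was removed or whether replicates are separate animals. A p-value below is therefore set against the spread among these libraries, which may be technical.

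GABA and glycine open chloride channels that usually hold the membrane potential of mature neurons near rest. GABA-A receptors are rings of subunits, and the α subunit sets much of where on the cell a receptor sits and how long its channel conducts. GABA-B receptors are slower, signal through G proteins and need both of their subunits to reach the cell surface. Glycine is the main inhibitory transmitter of brainstem and spinal cord, whereas GABA dominates in the forebrain and cerebellum.

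Depth ranged from 5.18 to 30.46 M reads assigned to genes per library. Cdr1as had 0 to 13 counts in the 12 KO libraries and 5617 to 130878 counts in the 12 WT libraries. The summed level of each region's marker list was higher in each of its own 6 libraries than in any library of the other regions, for example 946 to 1040 CPM (counts scaled to the library total) of the 8 olfactory bulb markers against at most 72.6 CPM elsewhere. The libraries cerebellum KO 1, olfactory bulb KO 2 and olfactory bulb WT 1 held 6.5, 5.18 and 7.4 M counts and 13741, 14393 and 16483 detected genes, fewer than the others. Levels below are CPM scaled by TMM over all 24 libraries, and levels of different genes are compared only as CPM per kb of exonic length.

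Which of these genes each region uses was read first from the 12 WT libraries. The level of 26 of the 27 genes differed between the 4 regions at an adjusted p under 0.05 (edgeR quasi-likelihood F-test), against 59.3% of the 16995 genes tested. The exception was Nlgn2, neuroligin 2, the adhesion protein of inhibitory postsynapses, with 235 ± 22.9 CPM in cerebellum, 276 ± 43.9 CPM in cortex, 227 ± 37.8 CPM in hippocampus and 213 ± 28.5 CPM in olfactory bulb (SD, n = 3 each, adjusted p = 0.199). Without cortex WT replicate 2 its adjusted p was 0.0455. Gabra6 and Slc6a5 had 10 or more counts in only 7 and 6 of the 24 libraries. They met the count rule through cerebellum alone, where they were high, so their region calls were built into the selection. Both are counted among the 26 and among the 7 highest in cerebellum. Of the 27, 11 were highest in cortex (40.7%, against 20.7% of all genes tested) and 7 in cerebellum (25.9%, against 32.7%). In olfactory bulb 6 were highest (22.2%, against 23.6%) and in hippocampus 3 (11.1%, against 23%). Whether a bulk difference between regions came from fewer cells of a type or from less RNA per cell cannot be told apart.

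**Figure D1:**
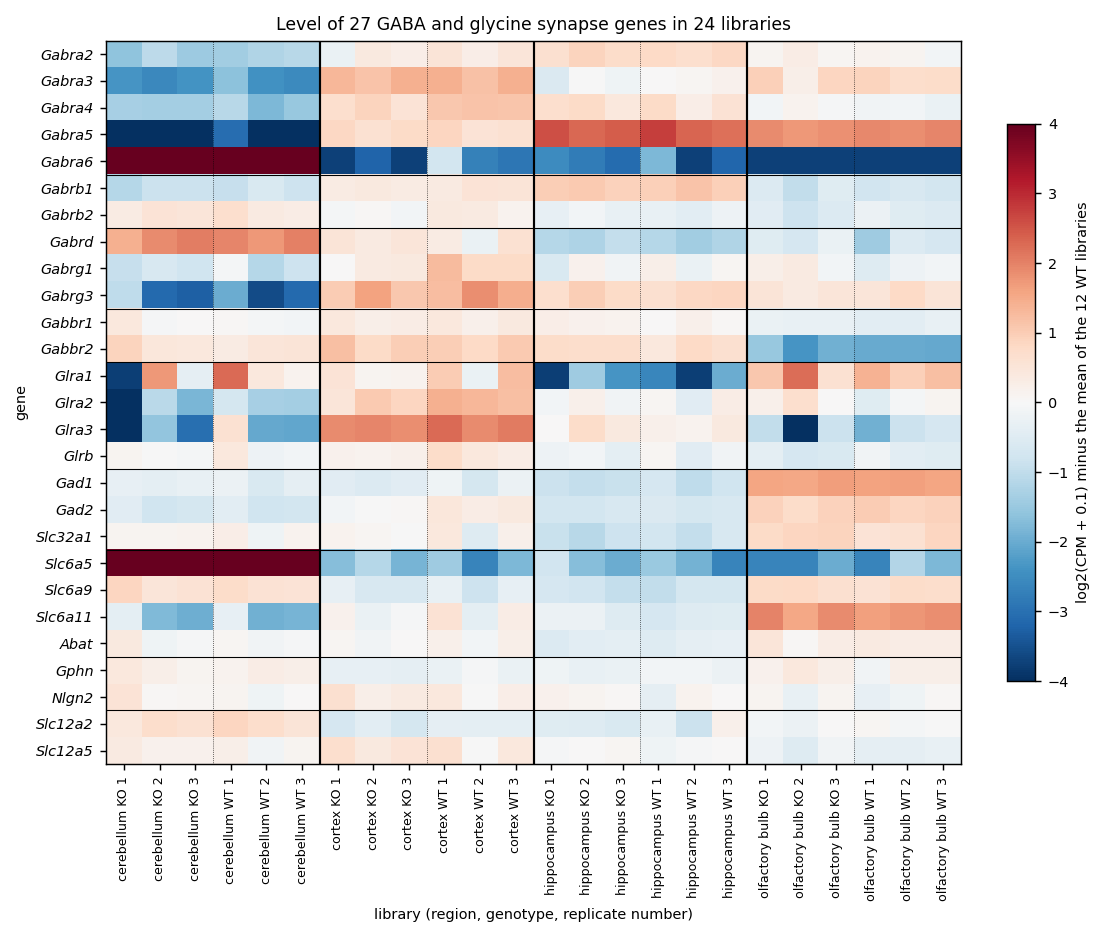
Level of the 27 genes (rows, grouped by role) in the 24 libraries (columns, with KO left of WT in each region), as log2(CPM + 0.1) minus the mean of the 12 WT libraries, with colours limited to 4 log2 units either way. Gabra6 and Slc6a5 are dark red in the 6 cerebellar libraries alone, Gad1 and Slc6a11 are red in the olfactory bulb, and Gabbr2 is blue there.

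Among the α subunits, Gabra6, the subunit of cerebellar granule cells, stood at 563, 564 and 575 CPM in the 3 cerebellar WT libraries. It reached at most 0.705 CPM in any WT library of cortex or hippocampus. In the olfactory bulb it had 0 counts in all 6 libraries, which puts the WT cerebellum at least 7690-fold higher than the WT olfactory bulb, counting 3 reads over the bulb group as the limit.

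Gabra5, known for receptors outside synapses of hippocampal pyramidal cells, ran the other way. Its level was 198, 149 and 134 CPM in hippocampus, 112, 106 and 114 CPM in olfactory bulb and 53.6, 42.6 and 44.7 CPM in cortex. In cerebellum the WT libraries gave 3.46, 0.432 and 0.302 CPM. The difference between hippocampus and olfactory bulb did not pass the threshold for this gene (adjusted p = 0.357, edgeR), and both were higher than cortex.

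Gabra3 was ordered more finely, with all 6 pairs of regions differing. It averaged 155 ± 15.2 CPM in cortex, 105 ± 7.88 CPM in olfactory bulb, 65.0 ± 3.34 CPM in hippocampus and 13.7 ± 4.9 CPM in cerebellum (SD, n = 3 each). Gabra4, which pairs with δ in receptors outside synapses of the forebrain, also differed in all 6 pairs, with 152 ± 4.22 CPM in cortex, 103 ± 16.7 CPM in hippocampus, 62.9 ± 3.09 CPM in olfactory bulb and 25.9 ± 6.13 CPM in cerebellum. Gabra2, an α subunit of forebrain synapses, was highest in hippocampus at 142 ± 8.61 CPM and cortex at 112 ± 9.96 CPM, a difference that did not pass (adjusted p = 0.138), and lowest in cerebellum at 35.7 ± 3.58 CPM.

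Per kb of exonic length, each region had its own α make-up among the 5 listed subunits. Gabra6 made up 94.9% ± 0.396 of the summed α level in KO cerebellum and 94.7% ± 0.96 in WT cerebellum. In cortex, Gabra3 led with 44.5% ± 3.7 in KO and 41.5% ± 1.73 in WT. There Gabra4 followed with 22.2% ± 2.96 in KO and 26.4% ± 2.46 in WT.

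Gabra5 led in the remaining regions. Its share was 51.8% ± 4.72 in KO hippocampus and 50.6% ± 4.84 in WT hippocampus. In the olfactory bulb it was 41.4% ± 1.06 in KO and 43.6% ± 1.79 in WT, where Gabra3 came next with 30.1% ± 5.66 in KO and 31.1% ± 1.21 in WT. The leading subunit was thus the same in KO and WT libraries of every region, and the KO and WT shares of the leading subunit overlapped in cerebellum, cortex and hippocampus and also, narrowly, in the olfactory bulb.

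**Figure D2:**
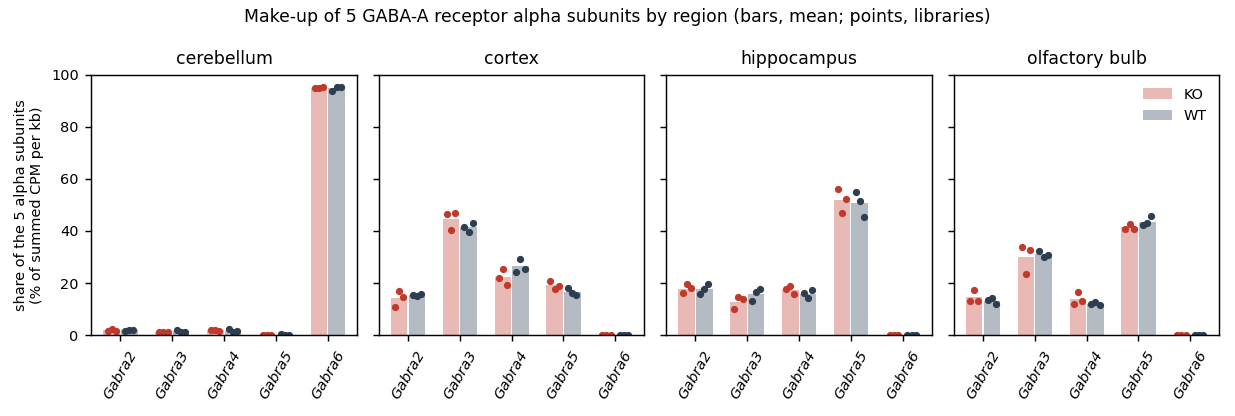
Share of each of 5 GABA-A receptor α subunits in their summed CPM per kb (vertical axis, percent), by region. Bars are means, points the 3 libraries, with KO left of WT. Gabra6 fills the cerebellum at 94.9% in KO and 94.7% in WT, while Gabra3 leads in cortex and Gabra5 in hippocampus and olfactory bulb.

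Of the β subunits listed, Gabrb2 was the larger part everywhere, with 97.1% ± 0.107 of the pair per kb in KO cerebellum and 96.6% ± 0.698 in WT cerebellum. Its lowest share was in hippocampus, with 84.1% ± 0.624 in KO and 83.0% ± 2.1 in WT. The level of Gabrb1 in WT libraries peaked in hippocampus at 143 ± 11.3 CPM, above cortex at 97.9 ± 7.39 CPM, while the difference between cerebellum at 40.9 ± 4.49 CPM and olfactory bulb at 43.3 ± 1.86 CPM did not pass (adjusted p = 0.54).

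Gabrd codes for the δ subunit of receptors outside synapses, which joins α6 in granule cells. It was highest in WT cerebellum at 154, 132 and 160 CPM, with every other WT library at or below 60.2 CPM. Gabrg3 was lowest there, at 6.82, 2.22 and 3.08 CPM, against 64.9, 99.4 and 74.7 CPM in WT cortex. Gabrg1, the γ1 subunit, was a low gene with its top in WT cortex at 34.2 ± 7.44 CPM and 11.5 to 17.9 CPM on average in the other regions.

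Several of these subunit genes share a chromosome. By the GENCODE M21 annotation of GRCm38, Gabra2, Gabra4, Gabrb1 and Gabrg1 lie on chromosome 5, Gabra6 and Gabrb2 on chromosome 11, and Gabra5 and Gabrg3 on chromosome 7. The pair on chromosome 11 had unlike patterns: Gabra6 was at 0 in the olfactory bulb, where Gabrb2 still had 300 ± 33.9 CPM in WT libraries.

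The subunits of the GABA-B receptor parted in the olfactory bulb. Gabbr2 stood at 63.3, 63.8 and 62.7 CPM in the 3 WT bulb libraries, whereas WT means in the other regions were 355 to 503 CPM. Gabbr1 was lower in the bulb too, but less so, at 467, 469 and 506 CPM, with WT means of 606 to 798 CPM elsewhere. The bulb was lower than each of the other regions for both genes (adjusted p = 3.61e-09 or smaller for Gabbr2 and 0.0268 or smaller for Gabbr1).

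Per kb, Gabbr1 exceeded Gabbr2 by 4.95, 8.71 and 6.49 times in the KO bulb libraries and by 6.35, 6.33 and 6.95 times in the WT bulb libraries. In the 18 libraries of the other regions the same ratio lay between 1.22 and 1.69. The bulb libraries therefore lay apart from all the others in both genotypes, with no test made of the ratio between regions.

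**Figure D3:**
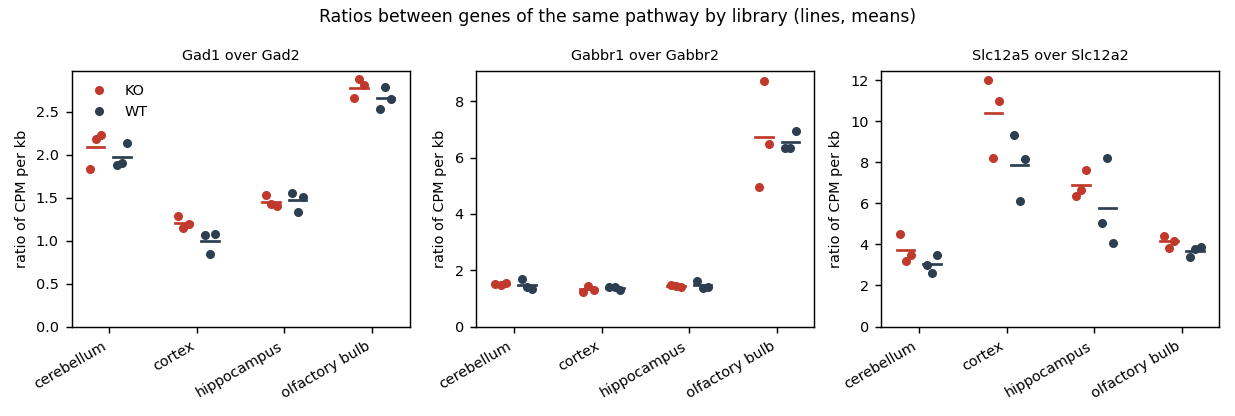
Ratios of CPM per kb between genes of the same pathway (vertical axes), by region; points are libraries, lines means, KO left of WT. Gabbr1 over Gabbr2 is 6.72 in KO and 6.55 in WT on average in the olfactory bulb and under 1.7 in every library of the other regions, while Gad1 over Gad2 is lowest in cortex, where KO and WT points do not overlap.

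Glycine receptor genes were present at low levels except for Glrb, the β subunit that binds gephyrin. Glrb averaged 158 ± 38.6 CPM in cerebellum, 214 ± 35.8 CPM in cortex, 135 ± 24.6 CPM in hippocampus and 120 ± 15.2 CPM in olfactory bulb (WT, SD, n = 3 each). Its level per kb was 5.37 ± 0.578 times that of Glra1, Glra2 and Glra3 together in WT cortex and 10.1 ± 1.68 times in WT hippocampus.

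Glra2 made up most of the listed α level in forebrain, with 71.6% ± 5.55 in KO cortex and 74.5% ± 5.58 in WT cortex, and 89.0%, 81.7% and 83.7% in the KO hippocampus libraries and 87.5%, 85.3% and 86.8% in the WT hippocampus libraries. Glra3 had its top in WT cortex at 13.1, 10.1 and 11.3 CPM, with at most 4.03 CPM in any other WT library. Glra1, the adult subunit of brainstem and spinal cord, was nearly absent from WT hippocampus at 0.121, 0 and 0.244 CPM and averaged 2.26 to 3.18 CPM in the other regions.

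Cerebellum KO 1 held 0 counts of Glra1, Glra2, Glra3 and Gabra5, which at its depth allows up to 0.462 CPM of each (3 counts, counting error only). Cerebellum WT 1 was at the other end, with 6.42, 4.89, 4.03 and 3.46 CPM of these genes in the same order, above both other WT cerebellum libraries for each of them. The summed level of 6 thalamus markers was also highest in cerebellum WT 1, at 219 CPM, with 122 to 163 CPM in the other 5 cerebellum libraries. The part of neighbouring tissue in these values was not tested.

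Synthesis genes set the olfactory bulb apart. Gad1, the GABA-synthesising enzyme GAD67, reached 1630, 1650 and 1600 CPM in WT bulb, with WT means of 405 CPM in cerebellum, 418 CPM in cortex and 303 CPM in hippocampus. Gad2, the enzyme GAD65 of nerve endings, stood at 471 ± 22.6 CPM in bulb, 320 ± 19.3 CPM in cortex and 158 CPM in both cerebellum (SD 23.3) and hippocampus (SD 7.59). Slc32a1, which loads GABA and glycine into vesicles, was highest in the bulb at 119 ± 13.2 CPM and lowest in hippocampus at 43.3 ± 4.82 CPM. Cerebellum at 78.8 ± 11.7 CPM and cortex at 78.6 ± 24.4 CPM were not told apart by the test (adjusted p = 0.981).

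The balance of the synthesis enzymes also moved between regions. Gad1 over Gad2 per kb averaged 2.78 ± 0.115 in KO bulb and 2.66 ± 0.132 in WT bulb. In cerebellum it averaged 2.09 ± 0.214 in KO and 1.97 ± 0.145 in WT, and in hippocampus 1.45 ± 0.0662 in KO and 1.47 ± 0.114 in WT.

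Among the transporters, Slc6a5, the glycine transporter GlyT2 of glycinergic nerve endings, had 34.7, 35.9 and 34.1 CPM in WT cerebellum and at most 0.171 CPM in any WT library of another region. Slc6a9, the glial glycine transporter GlyT1, was spread more evenly, with 94.2 ± 6.9 CPM in cerebellum, 97.2 ± 6.02 CPM in olfactory bulb, 44.2 ± 8.61 CPM in cortex and 35.3 ± 3.87 CPM in hippocampus (WT). Cerebellum and bulb were not told apart for Slc6a9 (adjusted p = 0.748).

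Slc6a11, the GABA transporter GAT3 of astrocytes, averaged 580 ± 40.3 CPM in WT bulb, 199 ± 64.3 CPM in WT cortex and 117 ± 8.04 CPM in WT hippocampus. In cerebellum its libraries split by replicate number and not by genotype, with 131, 50.7 and 44.5 CPM in KO 1, 2 and 3, and 135, 44.6 and 47.5 CPM in WT 1, 2 and 3. The SD of 51.4 CPM in WT cerebellum was thus made by 1 library. Abat, the GABA transaminase that breaks GABA down, ranged only from 243 ± 17.8 CPM in hippocampus to 402 ± 7.28 CPM in bulb.

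Gphn codes for gephyrin, the scaffold under glycine and GABA-A receptors. It varied little, with 120 ± 5.9 CPM in WT cerebellum, 111 ± 16.3 CPM in WT bulb, 91.4 ± 4.65 CPM in WT hippocampus and 89.3 ± 8.15 CPM in WT cortex, and cerebellum exceeded cortex and hippocampus (adjusted p = 0.0145 and 0.0173).

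The chloride transporters set whether GABA hyperpolarises a cell, since KCC2 (Slc12a5) moves chloride out of neurons and NKCC1 (Slc12a2) moves it in. Slc12a5 averaged 509 ± 62.4 CPM in cerebellum, 628 ± 136 CPM in cortex, 463 ± 29.5 CPM in hippocampus and 381 ± 12.7 CPM in olfactory bulb (WT). Slc12a2 was highest in WT cerebellum at 248 ± 27.7 CPM, above each of the other regions (adjusted p = 0.0099 or smaller). Its libraries there stood at 276, 246 and 220 CPM, and the 6 choroid plexus markers summed to 1110, 1070 and 23.3 CPM in them. In KO cerebellum Slc12a2 was at 204, 249 and 230 CPM and those markers at 248, 623 and 347 CPM. The part of choroid plexus was not tested, and bulk levels do not give the balance within neurons. Slc12a5 over Slc12a2 per kb averaged 10.4 ± 1.94 in KO cortex and 7.86 ± 1.63 in WT cortex, and was lowest in cerebellum at 3.73 ± 0.673 in KO and 3.03 ± 0.421 in WT.

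Between single pairs of WT regions, 22 of the 27 genes differed for cortex over olfactory bulb, where 38.3% of all genes did, and 20 for cerebellum over cortex, against 46.7%. Cerebellum over olfactory bulb gave 19 genes against 36.6%, and cerebellum over hippocampus 18 against 42.1%. Cortex over hippocampus gave 15 genes, 13 of them higher in cortex, where 9.77% of all genes differed. Hippocampus over olfactory bulb gave 13 genes against 33.8%. Gabra6 and Slc6a5, kept through cerebellum alone, are counted in each pair with cerebellum, and Gabra6 also in cortex over olfactory bulb.

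The 12 KO libraries were then taken in place of the 12 WT libraries, a check chosen after seeing the data. In them 25 of the 27 genes differed between regions, where 48.2% of 16764 genes did, and the highest region was the same as in WT for 25 genes. Glra1 and Nlgn2 did not pass in KO libraries. The highest region differed for Glra1 and for Gphn. Gabra6 and Slc6a5, kept through cerebellum alone, are again among the 25 that differed between regions.

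A list of 38 partner genes of inhibitory synapses, such as adhesion proteins and auxiliary receptor subunits, was read beside them. Of these, 36 were found and 34 tested, and 28 differed between WT regions, against 59.3% of all genes.

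The knockout was next set against wild type within each region. None of the 27 genes passed an adjusted p of 0.05 in any of the 4 regions with edgeR's quasi-likelihood test, and none passed with DESeq2. At an unadjusted p under 0.05 stood 1 gene in cerebellum, 6 in cortex, 1 in hippocampus and 0 in olfactory bulb. The median log2 fold change over the genes tested (KO over WT) was 0.02 in cerebellum, −0.19 in cortex, −0.01 in hippocampus and 0.02 in olfactory bulb. Over all genes tested it was −0.04, 0, −0.02 and −0.01 in the same order of regions.

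**Figure D4:**
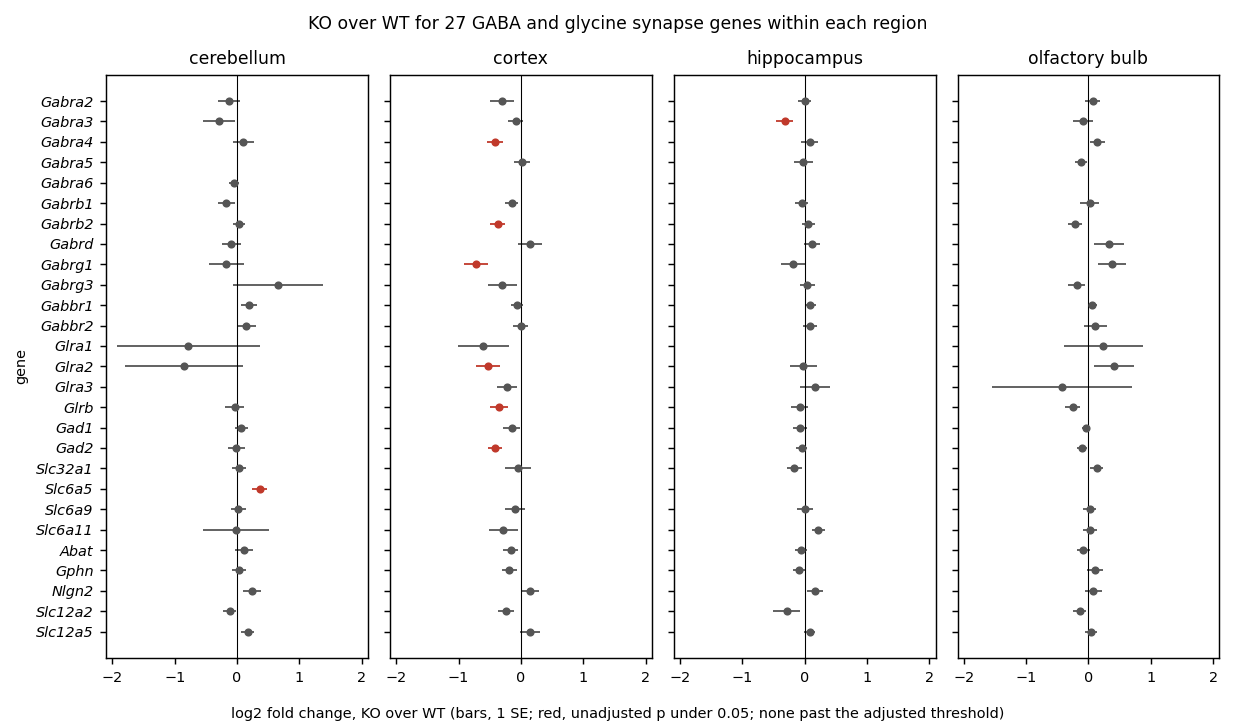
Log2 fold change of KO over WT (horizontal axis) with 1 SE for each of the 27 genes (rows) in each region; genes with too few counts in a region have no point, and red marks an unadjusted p under 0.05. In cortex the points lie mostly left of 0, with 6 red, while the other regions hold at most 1 red point each.

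In cortex, 21 of the 25 genes tested had a fitted fold change below 0 (KO over WT), where 49.9% of all 15777 genes did. One of the 21, Gabbr2, was at 0 after rounding, with means of 514 CPM in KO and 503 CPM in WT. At an unadjusted p under 0.05 stood 6 genes, all of them lower in KO, against 5.64% of all genes in either direction and 3.02% in the lower one. The 3 KO libraries lay wholly below the 3 WT libraries for 8 genes, against 5.91% of all genes, and wholly above for 0, against 7.61%. None passed the adjusted threshold, where 0.00634% of all genes did, and the smallest adjusted p among the 27 was 0.858. Leaving out each library in turn gave 19 to 24 genes lower in KO, and the median of −0.19 was −0.1 without WT replicate 1.

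Gad2 had the smallest p of these, with 231, 246 and 255 CPM in KO cortex and 339, 301 and 321 CPM in WT cortex. All KO values lay below all WT values. Its log2 fold change was −0.42 (SE 0.11, unadjusted p = 0.00422, adjusted p = 0.858). Gad1 was at 389, 368 and 394 CPM in KO cortex and 472, 331 and 451 CPM in WT cortex, where the groups overlapped.

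The ratio of Gad1 to Gad2 per kb in cortex was accordingly 1.29, 1.15 and 1.19 in KO and 1.07, 0.848 and 1.08 in WT. These groups did not overlap, and the exact two-sided permutation p was 0.10, the smallest that 3 against 3 libraries can give. In all, 23 such ratios were compared in the 4 regions, so their adjusted p could not pass 0.05. Gabrb2 over Gabrb1 in olfactory bulb was the other ratio at that p, with 12.9 ± 0.897 in KO and 15.1 ± 2.18 in WT.

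Gabrg1 had the largest fold difference of the 8, at 17.7, 22.6 and 23.0 CPM in KO cortex and 42.8, 29.9 and 29.9 CPM in WT cortex. The log2 fold change was −0.72 (SE 0.19, unadjusted p = 0.00581), and it was −0.52 without WT replicate 1, the highest library. Gabra4 stood at 112, 131 and 104 CPM in KO cortex and 149, 157 and 152 CPM in WT cortex, a log2 fold change of −0.42 (SE 0.13, unadjusted p = 0.0112). The third subunit in this group was Gabrb2, with 377, 416 and 372 CPM in KO cortex and 524, 509 and 444 CPM in WT cortex. Its log2 fold change was −0.37 (SE 0.12, unadjusted p = 0.0158), and the groups did not overlap for any of these subunit genes.

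Of the glycine receptor genes, Glra2 was at 11.1, 16.6 and 14.5 CPM in KO cortex and 21.5, 20 and 18.4 CPM in WT cortex (log2 fold change −0.53, SE 0.19, unadjusted p = 0.0246). Glrb was at 172, 166 and 175 CPM in KO cortex and 253, 204 and 184 CPM in WT cortex (log2 fold change −0.35, SE 0.14, unadjusted p = 0.0334). Without WT replicate 1 the Glrb value was −0.2. Both genes had every KO library below every WT library.

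Slc12a2 and Gphn were the remaining genes without overlap, at log2 fold changes of −0.24 and −0.19. Their unadjusted p-values were 0.0984 and 0.151, and the Gphn value was −0.1 without WT replicate 2.

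**Figure D5:**
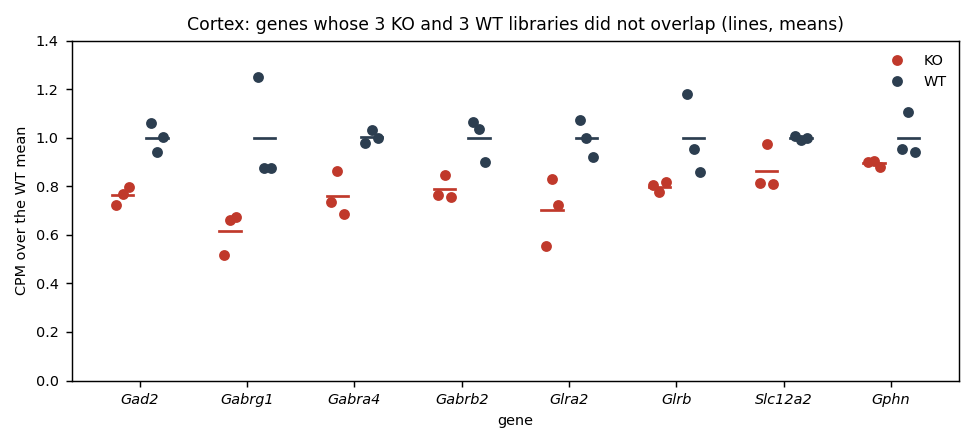
CPM over the WT mean (vertical axis, from 0) of the 8 genes whose 3 KO libraries lay below the 3 WT libraries in cortex, ordered by p; points are libraries, lines means, KO left of WT. The mean log2 fold changes run from −0.72 for Gabrg1 to −0.19 for Gphn, and none of the 8 genes passed the adjusted threshold.

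By role, the cortical values were uneven. Of the 9 GABA-A subunits tested 7 were lower in KO, the others being Gabra5 at 0.02 and Gabrd at 0.15. The 4 glycine receptor genes, the 3 of synthesis and loading and the 3 of uptake and breakdown tested were lower in KO, with log2 fold changes from −0.6 for Glra1 to −0.04 for Slc32a1. Slc12a5 and Nlgn2 were higher in KO, at 0.14 and 0.15.

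Lists of tissue and cell type markers were read in the same cortex libraries, and some of them differed between KO and WT. The summed level of 8 olfactory bulb markers was 23.6, 24 and 26.0 CPM in KO cortex and 68.8, 35.7 and 44.4 CPM in WT cortex, without overlap. All 7 of the 7 tested were lower in KO, 6 of them at an unadjusted p under 0.05, with a median log2 fold change of −1.17. In that direction 3.02% of all genes had such a p. The 6 thalamus markers summed to 102, 82.5 and 92.7 CPM in KO and 124, 89.6 and 171 CPM in WT, with overlap and with all 6 lower in KO. The 16 inhibitory neuron markers, among them Pvalb, Sst and Vip, had a median log2 fold change of −0.05 with 9 lower in KO, 4 of them at an unadjusted p under 0.05 and none higher at that p, and summed to 767, 647 and 713 CPM in KO and 782, 590 and 720 CPM in WT. The 10 cerebellum markers summed to 167, 142 and 158 CPM in KO and 247, 202 and 187 CPM in WT, without overlap, with 5 of the 6 tested lower in KO and a median log2 fold change of −0.42. Of the 8 oligodendrocyte markers 7 were lower in KO, 2 of them at an unadjusted p under 0.05. Their sums overlapped, at 3040, 2610 and 2480 CPM in KO and 2700, 2490 and 3300 CPM in WT. The 7 striatum markers found summed to 794, 817 and 504 CPM in KO and 544, 860 and 898 CPM in WT, with overlap. Of these 7, 5 were lower in KO, none at an unadjusted p under 0.05, with a median log2 fold change of −0.16. The part of these tissue and cell markers in the differences of the 27 genes was not tested.

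Same-numbered KO and WT cortex libraries deviated together from their group means, so the fit was repeated with the replicate number as a block. It gave 30 of all genes past the threshold where the fit without it gave 1, and none of the 27 among them. The adjusted p was then 0.155 for Gad2, 0.187 for Gabrg1, 0.162 for Gabra4, 0.169 for Gabrb2, 0.217 for Glra2 and 0.271 for Glrb. The share of reads that the counting placed in no feature was 30.5%, 53.7% and 33.6% in KO cortex 1, 2 and 3. In WT cortex 1, 2 and 3 it was 20.3%, 56.2% and 34.9%. Such reads may lie outside genes or within them, since the counting settings are not stated. With that share as a covariate the smallest adjusted p was 0.0671, for Gad2.

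In cerebellum, 12 of the 25 genes tested were lower in KO, where 56.9% of all 15536 genes were. Slc6a5 had the smallest p, at 49.0, 45.2 and 40.6 CPM in KO and 34.7, 35.9 and 34.1 CPM in WT. Its KO libraries all lay above the WT libraries, as those of 4.89% of all genes did, while no gene of the 27 lay wholly below, against 6.48%. Its log2 fold change was 0.36 (SE 0.12, unadjusted p = 0.0156, adjusted p = 0.949). At the adjusted threshold stood 0.00644% of all genes and at an unadjusted p under 0.05 stood 1.89%. The 8 olfactory bulb markers summed to 64.0, 60.7 and 72.6 CPM in KO cerebellum and 35.9, 24.1 and 30.2 CPM in WT cerebellum, without overlap. All 3 of them that were tested were higher in KO, with a median log2 fold change of 0.65. The part of these markers in the cerebellar differences of the 27 genes was not tested.

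The next 5 cerebellar genes by p were Slc12a5 at 0.17, Nlgn2 at 0.24, Gabbr1 at 0.19, Gabrb1 at −0.17 and Slc12a2 at −0.12, as log2 fold changes with unadjusted p-values of 0.139 to 0.283. The widest values were −0.85 for Glra2 (SE 0.95) and 0.66 for Gabrg3 (SE 0.72), where single libraries stood apart. Gabrg3 was at 13.6, 3.11 and 2.73 CPM in KO and 6.82, 2.22 and 3.08 CPM in WT, so that the libraries numbered 1 were the highest in both groups. The most cerebellar subunit, Gabra6, was at 496, 558 and 589 CPM in KO and 563, 564 and 575 CPM in WT, a log2 fold change of −0.05 (SE 0.08).

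Single libraries moved these counts. The number of genes lower in KO was 17 without KO replicate 1 and without WT replicate 2, 16 without WT replicate 3 and 7 without WT replicate 1. The median log2 fold change was −0.07 without KO replicate 1, −0.06 without WT replicate 2, −0.03 without WT replicate 3 and 0.13 without WT replicate 1.

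In hippocampus, 13 of the 24 genes tested were lower in KO, where 53.8% of all 16119 genes were, and 0.0062% of all genes passed the adjusted threshold. Gabra3 was at 40.8, 60.7 and 54.6 CPM in KO and 62.1, 64.3 and 68.6 CPM in WT, without overlap, as for 3.97% of all genes in that direction, and no gene of the 27 lay wholly above, against 5.65%. Its log2 fold change was −0.32 (SE 0.14, unadjusted p = 0.0484, adjusted p = 0.953), and it was −0.17 without KO replicate 1, the lowest library. An unadjusted p under 0.05 was found for 4.01% of all genes. Slc6a11 came next at 145, 146 and 120 CPM in KO and 108, 120 and 123 CPM in WT, with 1 KO library below the highest WT library and a log2 fold change of 0.22 (SE 0.11).

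Slc12a2 varied widely among the WT libraries. It was at 108, 107 and 99.5 CPM in KO hippocampus and 124, 84.6 and 176 CPM in WT hippocampus. The 6 choroid plexus markers, led by Ttr, summed to 39.8, 38.3 and 33.6 CPM in the same KO libraries and 2330, 33.7 and 1870 CPM in the same WT libraries. The WT libraries high for those markers were the ones high for Slc12a2, a transporter that choroid plexus also makes. Its log2 fold change was −0.29 (SE 0.22, unadjusted p = 0.22). It was −0.51 without WT replicate 2 and 0 without WT replicate 3, and the part of choroid plexus in it was not tested.

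The remaining hippocampal genes by p were Slc32a1 at −0.17, Nlgn2 at 0.16 and Gphn at −0.09, as log2 fold changes with unadjusted p-values of 0.194 to 0.366. The leading α subunit, Gabra5, had a log2 fold change of −0.02 (SE 0.15).

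In olfactory bulb, 10 of the 25 genes tested were lower in KO, where 52.2% of all 15831 genes were. No gene of the 27 had an unadjusted p under 0.05, against 2.43% of all genes, and 0.0253% of all genes passed the adjusted threshold. Glrb had the smallest p, at 115, 95.3 and 98.9 CPM in KO and 137, 114 and 108 CPM in WT, with overlap and a log2 fold change of −0.25 (SE 0.12, unadjusted p = 0.0678), which was −0.14 without WT replicate 1. Gabrb2 followed at −0.22, Gabrg1 at 0.38, Gad2 at −0.11, Slc12a2 at −0.14 and Gabrd at 0.33, with unadjusted p-values of 0.0882 to 0.2.

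Gabra4 and Gabbr1 were the bulb genes without overlap, both higher in KO, as 8.09% of all genes were, and none was lower without overlap, against 4.14%. Gabra4 was at 66.1, 78.1 and 69.0 CPM in KO and 64.4, 64.9 and 59.3 CPM in WT. Gabbr1 was at 523, 513 and 509 CPM in KO and 467, 469 and 506 CPM in WT. The fold changes were small, at 0.14 (SE 0.12) and 0.06 (SE 0.07) on the log2 scale.

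Whether the effect of the knockout differed between regions was tested over all 24 libraries as an interaction with 3 degrees of freedom. None of the 27 genes passed (smallest adjusted p = 1, edgeR), and 0.00568% of all 17600 genes did. At an unadjusted p under 0.05 stood Gabrg1 (unadjusted p = 0.0343), Gabra4 (unadjusted p = 0.0353) and Gabra6 (unadjusted p = 0.0463), 3 of 27, against 1.48% of all genes. Gabra6 had 1 count in KO and 14 in WT over the cortex libraries, 5 in KO and 8 in WT over those of hippocampus and 0 in the bulb, so its p rests on near-absent counts outside cerebellum and says nothing of those regions. DESeq2 also called none of the 27. A difference of the cortex from the other regions was thus not shown for any of these genes.

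Partner genes were read in the same way, and none of the 36 found passed in any region with edgeR. At an unadjusted p under 0.05 stood 4 of 31 tested in cerebellum (1.89% of all genes), 7 of 33 in cortex (5.64%), 1 of 32 in hippocampus (4.01%) and 0 of 33 in olfactory bulb (2.43%). In cortex 19 of 33 tested were lower in KO, where 49.9% of all genes were, and those with the smallest p were Slitrk3, an adhesion protein of inhibitory synapses, at −0.35 (unadjusted p = 0.0105) and Plcl1, a binding partner of GABA-A receptors, at −0.45 (unadjusted p = 0.0107). In cerebellum they were Gls2, a glutaminase, at 0.43 (unadjusted p = 0.0104) and Kctd8, an auxiliary subunit of GABA-B receptors, at 0.46 (unadjusted p = 0.0256). In hippocampus they were Mdga1 at 0.27 and Gabarapl2 at −0.34, and in olfactory bulb Mdga2 was at −0.14, as log2 fold changes.

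Sites for the microRNAs that bind Cdr1as were looked for in the longest annotated 3′ UTR of each gene (GENCODE M21). The mature sequences, credited to RefSeq with the build GRCm38.p6, are shown because their seeds, bases 2 to 8 in capitals, define the sites searched, and miR-7a and miR-7b share a seed.
mmu-miR-7a-5p: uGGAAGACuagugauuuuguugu
mmu-miR-7b-5p: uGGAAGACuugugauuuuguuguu
mmu-miR-671-5p: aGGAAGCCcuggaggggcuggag

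The letters GTCTTCC, the match to the miR-7 seed in the transcript sequence, were in the 3′ UTR of 7 of the 27 genes (25.9%): Gabrb1, Gabrg3, Gabbr1, Glra3, Slc6a9, Slc6a11 and Nlgn2. Of all 21001 genes with a 3′ UTR, 11.9% held it. The shares are not matched for length, and the median 3′ UTR was 2081 bases in the 27 genes and 961 bases in all genes. Gabbr1 alone had 3 such sites, printed here with Nlgn2's 1 site as windows of the UTR, with the 7 matching bases in capitals.
Gabbr1 first site: cagcagggGTCTTCCtacattat
Gabbr1 second site: gtccctgtGTCTTCCtctcctta
Gabbr1 last site: accaagctGTCTTCCtcatgtgc
Nlgn2 site: ggggtgctGTCTTCCactgacac

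Log2 fold changes of these 7 genes in KO over WT were of both signs, from −0.42 for Glra3 in olfactory bulb to 0.66 for Gabrg3 in cerebellum, and Slc6a11 was at −0.28 in cortex. Gabbr1 had log2 fold changes of 0.19 in cerebellum, −0.06 in cortex, 0.09 in hippocampus and 0.06 in olfactory bulb. Nlgn2 was at 0.24, 0.15, 0.16 and 0.08 in the same order, higher in KO in all 4 regions, with unadjusted p-values of 0.14 to 0.543. Slc12a5, a gene without such a site, was also higher in KO in all 4, at 0.17, 0.14, 0.08 and 0.04. Slc6a9 was within 0.09 of 0 in all 4.

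The letters GGCTTCC, the match to miR-671-5p, were in 7 of the 27 genes, where 12% of all genes held them: Gabrb1, Gabrg1, Gabbr1, Gabbr2, Gad2, Slc6a5 and Slc6a9. These shares are not matched for 3′ UTR length either. The cortical genes with the smallest p, Gad2 and Gabrg1, each had 1 such site, and Slc6a5 had 4. Gabra4, Gabrb2, Glra2 and Glrb, the other genes at an unadjusted p under 0.05 in cortex, had none. The other genes with a site that were tested in cortex had log2 fold changes of −0.15 for Gabrb1, −0.09 for Slc6a9, −0.06 for Gabbr1 and 0 for Gabbr2. A match describes the letters only, and binding was not measured.
Gad2 site: acaagaatGGCTTCCtcccagat
Gabrg1 site: tgagaggaGGCTTCCacttggaa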

How the data were processed

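Ribosomal-RNA-depleted total RNA was sequenced with a stranded kit from 24 libraries, 3 KO and 3 WT of each of 4 brain regions. The values are whole-number counts of reads per Ensembl gene, deposited by the authors. The submitters' processing notes name bcl2fastq 2.17.1.14, STAR 2.5.1b, HTSeq 0.6.1p1 and the genome build mm9. The sources used here do not state the counting settings or annotation, so reads of overlapping or antisense genes may not be separated.

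Symbols, exonic lengths, UTRs and chromosomes came from the GENCODE M21 annotation of GRCm38, with no coordinates carried over. Gene counts ranged from 5.18 to 30.46 M per library, and limits for a count of 0 use 3 counts and cover counting error only. No replicate pair agreed within sampling noise.

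Each region was fitted alone with edgeR 4.0.16 (R 4.3.3, limma 3.58.1) on the counts of all genes, with TMM scaling, filterByExpr with a minimum count of 10, a robust quasi-likelihood F-test and Benjamini-Hochberg adjustment at 0.05. The SE of a log2 fold change was derived from the test, as its absolute value over the square root of F. WT regions and the interaction of genotype and region were fitted likewise. Every gene of the list is named, with values for those past a threshold or among the 6 smallest p in a comparison. Of the 38 partner genes, those past the threshold and the 2 with the smallest p in each comparison are named, except 1 that is not reported here. Members and lists were chosen with earlier results of these data known. Ratios were compared by exact two-sided permutation tests. The fits were tested on simulated data.

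Same-numbered KO and WT libraries correlated in their deviations from group means at r = 0.19 to 0.62 in cortex, with all 3 pairs over 0.1, but not in the other regions. Cortex KO 3 correlated more with WT 1 (r = 0.35) than with WT 3 (r = 0.19). Same-numbered WT libraries of cerebellum and cortex also correlated, at r = 0.4 to 0.41. The labels do not say what the numbers mark. Alternatives were other size factors, DESeq2 1.42.0, other filters, a replicate block, a covariate, a common fit and leaving out each library. Repeating the region test on KO libraries was chosen after seeing the data.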

Additional observations from a re-analysis of the deposited data

How the results depend on the processing

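None of the 27 genes passed the adjusted threshold in any comparison of KO with WT or in the interaction, under any of the 13 alternatives of each region or the 29 of the interaction. The smallest adjusted p over these was 0.821 in cerebellum, 0.0671 in cortex, 0.488 in hippocampus, 0.829 in olfactory bulb and 0.551 for the interaction. What changed was how many of all genes passed, where the counts were 1 in cerebellum, 1 in cortex, 1 in hippocampus, 4 in olfactory bulb and 1 for the interaction; the cause was not tested. DESeq2 gave 19, 40, 16, 17 and 15 in that order. Without a filter on low counts they were 3, 7, 5, 16 and 2. One fit of all 24 libraries gave 4, 6, 2 and 7 for the regions, and the filter of 10 counts in 3 libraries gave 2 in cerebellum. With the share of reads outside genes as a covariate they were 57 in cortex and 2 in hippocampus.

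With the replicate number as a block, the paired counts were 30 in cortex, 6 in hippocampus and 11 in olfactory bulb. They stayed at 1 in cerebellum and 1 for the interaction, and the WT region test gave 11004 genes against 10085, with 26 of the 27 in both. Same-numbered KO and WT libraries of cerebellum, hippocampus and olfactory bulb correlated only at r from −0.23 to 0.1. Across regions, same-numbered WT libraries correlated at 0.4 to 0.41 for cerebellum and cortex and at 0.11 to 0.22 for cortex and olfactory bulb. In the other pairs of regions r ran from −0.21 to 0.47. The main region and interaction tests had no block and took these libraries as independent. The block changed no call among the 27 genes.

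Leaving out each library in turn gave 1 to 3 genes in cerebellum, 1 to 3 in cortex, 1 to 47 in hippocampus (47 without WT replicate 2), 1 to 8 in olfactory bulb and 1 to 2 for the interaction. Genes of the 27 lower in KO then numbered 7 to 17 in cerebellum, 19 to 24 in cortex, 10 to 16 in hippocampus and 10 to 15 in olfactory bulb. Their median log2 fold change ran from −0.07 to 0.13 in cerebellum, −0.25 to −0.1 in cortex, −0.04 to 0.04 in hippocampus and −0.03 to 0.06 in olfactory bulb, so only the cortical sign held. In WT regions 26 to 27 of the genes passed. With the longest transcript as length, the WT shares were 93.3% for Gabra6 in cerebellum, 36.4% for Gabra3 in cortex and 41.5% for Gabra5 in olfactory bulb, against 94.7%, 41.5% and 43.6%. Leaving out WT libraries gave 94.3 to 95.2%, 40.7 to 42.4% and 42.6 to 44.3%. Counting error alone allows up to 0.462 CPM of the glycine receptor α genes and Gabra5, at 0 counts in cerebellum KO 1. In olfactory bulb KO 2 it allows up to 0.58 CPM of Gabra6, Glra3 and Slc6a5. Cerebellum KO 1 also had the fewest detected genes, 13741, and losses other than counting error were not tested.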
